A study of Mus musculus with 6 samples.

Results

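The selectin and lymphoid homing genes are 9 genes, *Selp*, *Selplg*, *Ccr7*, *S1pr1*, *S1pr4*, *Klf2*, *Itgb7*, *Itgal* and *Cd44*, out of 12153 genes measured in Tregs sorted from B16 melanoma tumors. They were selected by name, as genes of selectin adhesion, lymph node entry and egress, and in part chosen on the large *Selp* difference between the genotypes compared here. The values of that comparison are therefore given for these genes as a description without a test. All 9 have values in the deposited table. A wider list of 80 homing genes was followed beside them, of which 66 have values. It was also chosen with earlier results of these data known.

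Lymphocytes leave blood in steps. Selectins bind carbohydrate on sialomucin ligands such as PSGL-1 and slow the cell, chemokine receptors such as CCR7 then activate integrins, and integrins hold the cell to the vessel wall. Exit from lymphoid tissue follows the lipid S1P through its receptor S1PR1, and the transcription factor KLF2 promotes the gene for S1PR1 in resting T cells. Effector Tregs in tissues typically carry less CCR7 and more CD44 than resting Tregs.

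RNA-Seq was performed on 6 libraries, 3 from control mice with floxed *Nr3c1* and 3 from mice that carry floxed *Nr3c1* and the Foxp3-YFP/Cre allele, termed Nr3c1-Foxp3Cre. *Nr3c1* encodes the glucocorticoid receptor (GR), and Cre made from the *Foxp3* promoter deletes it in Tregs. All mice bore B16.F10 tumors, a mouse melanoma line, harvested at day 15, and the age and number of mice behind a library are not stated. The labels describe a sort on CD45, CD4 and CD25 and the study's methods a sort on Foxp3-YFP, while the labels give the YFP/Cre allele only to the Nr3c1-Foxp3Cre mice, so deletion of GR, the Cre allele and any difference in sorting cannot be told apart. Nothing says that libraries came from separate mice, so p-values measure only the spread between these libraries.

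Values are log2 CPM, where CPM is the count of a gene scaled to a common library total. The authors had quantile normalized them, and read depth is unknown. *Nr3c1* (ENSMUSG00000024431.15) was at 7.15, 7.59 and 6.88 log2 CPM in control Tregs and at 6.14, 5.45 and 5.90 in Nr3c1-Foxp3Cre Tregs. Each Nr3c1-Foxp3Cre library was below each control library, with a log2 difference of -1.38 (standard error 0.21, limma adjusted p = 0.120; exact two-sided permutation test over libraries, p = 0.1, the smallest that 3 against 3 allow). Over all genes, limma called 1 gene higher and 6 lower in Nr3c1-Foxp3Cre Tregs at an adjusted p under 0.05, or 0.00823% and 0.0494% of those tested. All 7 Treg markers listed were measured, and their summed level was 3148 to 4407 CPM in control and 3204 to 3818 CPM in Nr3c1-Foxp3Cre libraries. Among them *Foxp3* was at 3.39, 4.42 and 3.91 log2 CPM in control and 4.47, 3.50 and 3.90 in Nr3c1-Foxp3Cre libraries. The 5 melanoma markers summed to 3374 to 9051 CPM and 3766 to 9468 CPM, and the 6 macrophage and monocyte markers to 295 to 415 CPM and 225 to 418 CPM, with groups that overlapped. The melanoma sum was the highest of its group, and the Treg sum the lowest, in control replicate 1 and Nr3c1-Foxp3Cre replicate 2.

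*Selp* was barely detected in control Tregs and was at a low level in every Nr3c1-Foxp3Cre library. Of the 9 genes, 7 had overlapping groups, with log2 differences from -0.042 to 0.094. The groups did not overlap for *Selp*, which was higher, and *Ccr7*, which was lower in Nr3c1-Foxp3Cre Tregs. Over all genes the groups did not overlap for 448 higher genes, or 3.69%, and 453 lower genes, or 3.73%. The choice of genes used this contrast, so nothing is read from 2 of 9. The median log2 difference of the 9 genes was 0.049, against -0.0014 over all 12153 genes. In these bulk libraries, fewer cells that express a gene and less RNA per cell cannot be told apart.

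**Figure D1:**
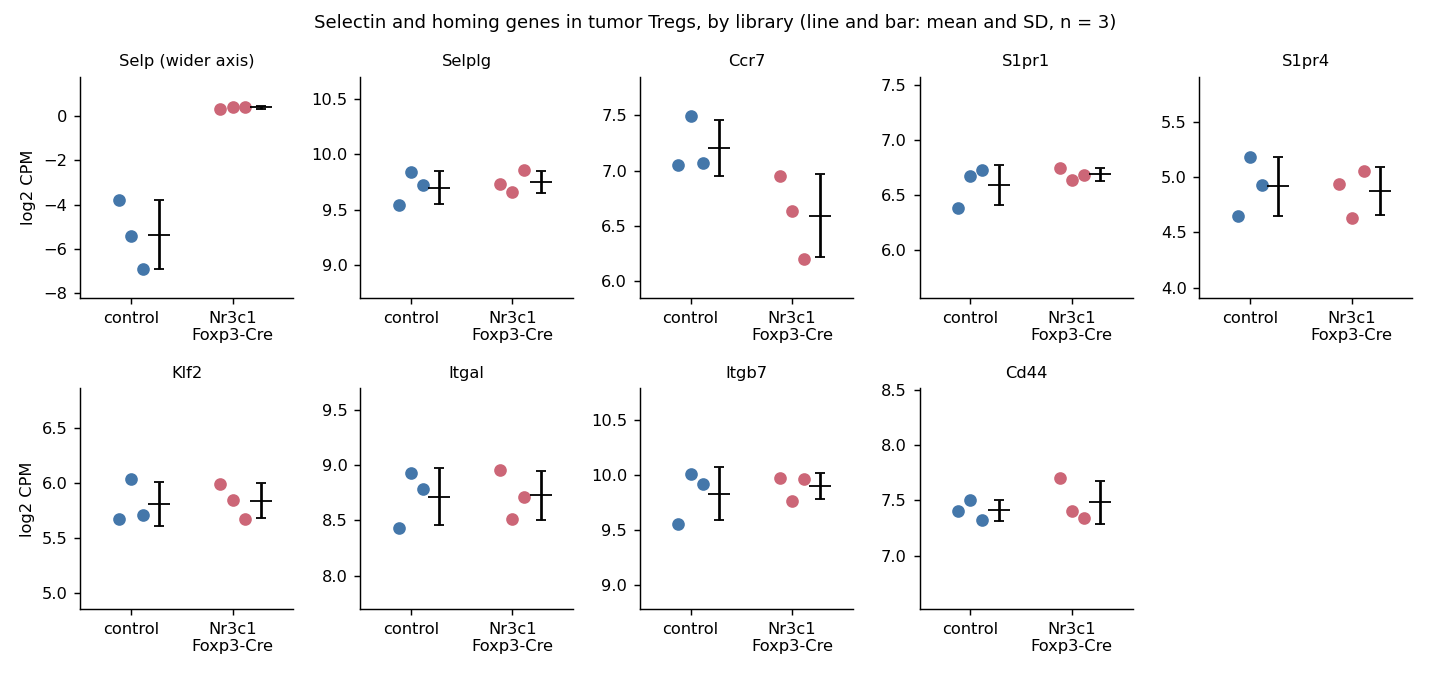
Each panel shows one gene, with log2 CPM on the vertical axis, one point per library, and a line and bar for the mean and SD of each group (n = 3). The *Selp* axis covers a wider range than the others; the groups separate for *Selp* and *Ccr7* and overlap for the other 7 genes.

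*Selp* (ENSMUSG00000026580.16) encodes P-selectin, which platelets and endothelial cells store in granules and bring to the surface on activation. It lies on the plus strand of chromosome 1 of mm10 from 164115264 to 164150026. Its 250 bases upstream of the start, chr1:164115014-164115263 of GRCm38.p6 on the plus strand, are shown because the 9 genes were in part chosen on the difference of this one, and capitals mark the matches found in them, written here as they read on the plus strand:

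Selp upstream: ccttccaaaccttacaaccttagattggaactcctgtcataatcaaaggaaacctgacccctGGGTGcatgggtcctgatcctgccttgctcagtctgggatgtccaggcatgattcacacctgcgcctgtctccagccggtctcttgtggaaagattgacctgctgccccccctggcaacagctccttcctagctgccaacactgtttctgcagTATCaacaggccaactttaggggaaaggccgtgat

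The sequence is from RefSeq, whose promoter table matched 5 of the 9 genes by symbol. On both strands it was searched for the glucocorticoid half-site TGTTCT, for the paired element GNACA and TGTNC with 3 bases between them, for the KLF letters CACCC and for GATA. It held 1 match to CACCC, 188 bases before the start, and 1 to GATA, 35 bases before the start, both on the minus strand. Among 32851 upstream sequences of the same length, 52.0% held CACCC, 53.6% GATA, 16.1% the half-site and 0.387% the paired element. Of the searched letters, the half-site and the paired element are not in this window. The same search found 1 half-site upstream of *Itgb7*, 154 bases before its start, a gene whose groups overlapped. Such matches are descriptions of letters and not of binding.

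The level of *Selp* was -3.77, -5.41 and -6.90 log2 CPM in the control libraries and 0.32, 0.44 and 0.44 log2 CPM in the Nr3c1-Foxp3Cre libraries. The 3 control libraries were all far below the 3 Nr3c1-Foxp3Cre libraries, and the spread lay almost wholly among the controls. On the linear scale these levels are 0.0731, 0.0235 and 0.00838 CPM against 1.25, 1.35 and 1.36 CPM, or means of 0.0350 ± 0.034 (SD, n = 3) and 1.32 ± 0.060 CPM (SD, n = 3). The log2 difference was 5.76 (standard error 0.91).

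That size depends on how values at the bottom of the table were set. Quantile normalization gives a gene the value of its place in the sorted library. In control Tregs, 7, 2 and 0 genes of 12153 had a lower value than *Selp*, and in replicate 3 it shared the lowest value with 1 other gene. The sorted values of all 3 control libraries were the same at the lowest 7 places, from -6.90 to -3.92, so the SD of 1.56 among the controls is a difference of a few places. In Nr3c1-Foxp3Cre libraries 2 and 3 the lowest value was instead -3.96, shared by 11 genes. There, 271, 336 and 340 genes had a value below that of *Selp*, and 11, 7 and 4 other genes had exactly its value. With values below log2 0 set to 0 the *Selp* difference was 0.40, and with log2(CPM + 1) it was 1.16. With a floor at log2 -4, chosen after seeing the data, it was 4.32.

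**Figure D2:**
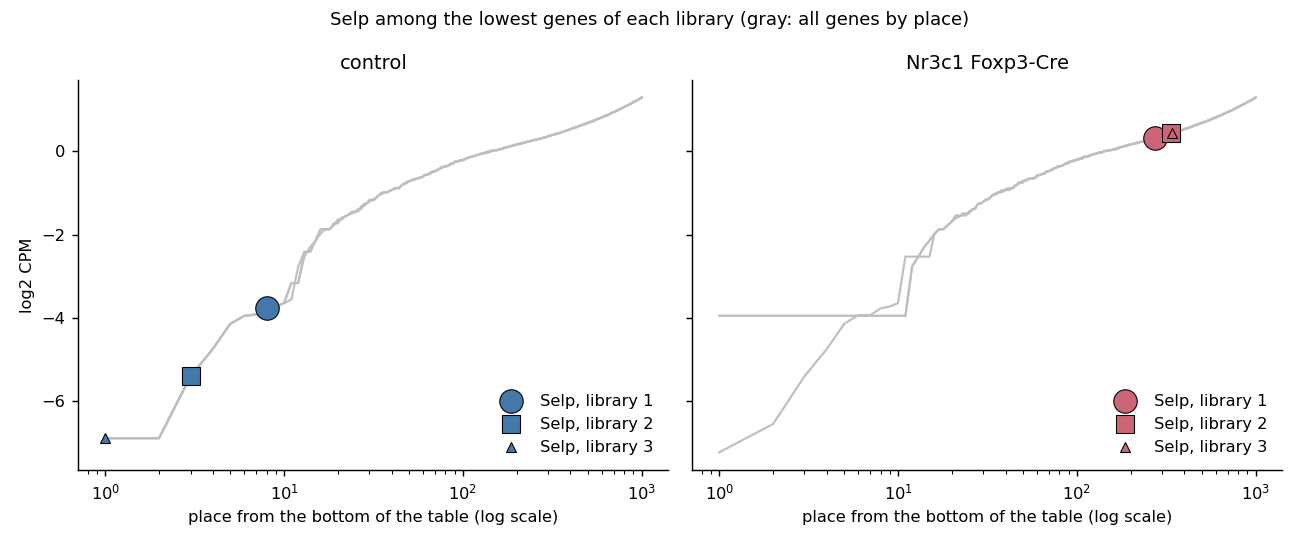
Gray lines show the log2 CPM (vertical axis) of the lowest genes of each library by their place from the bottom (horizontal axis, log scale), and markers show *Selp* in each library. In control Tregs *Selp* sat among the 8 lowest genes, and in Nr3c1-Foxp3Cre Tregs it had 271 to 340 genes below it, with libraries 2 and 3 nearly on the same point.

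The authors removed genes under 1 CPM before normalization, and *Selp* is at or above 1 CPM in the Nr3c1-Foxp3Cre libraries alone. A gene kept only through the group in which it is higher had to differ, and how many libraries had to pass is not given in the sources used here. In the table, 49 genes are at or above 1 CPM in exactly 3 libraries and 7 in fewer. A gene must also be read with its neighbors: GENCODE places *Gm16587* and *Gm16548* on the opposite strand, overlapping *Selp*. Neither has a value in the table, and strand use in counting is not given in the sources used here. Reads from positions they share with *Selp* therefore cannot be assigned to one gene here.

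Markers of the cells known to make P-selectin were set beside it. Of 9 platelet and megakaryocyte markers, 8 are not in the table, among them *Itga2b*, *Gp9* and *Ppbp*. The remaining one, *Pf4*, was at 10.4, 9.21 and 5.98 CPM in control and 3.02, 9.05 and 3.57 CPM in Nr3c1-Foxp3Cre libraries, with overlap. In each group *Pf4* was highest in the library with the highest macrophage and monocyte sum, control replicate 1 and Nr3c1-Foxp3Cre replicate 2. The order differed in control replicates 2 and 3, where that sum was 295 and 319 CPM and *Pf4* 9.21 and 5.98 CPM. It was shared in Nr3c1-Foxp3Cre replicates 1 and 3, with sums of 225 and 249 CPM and *Pf4* at 3.02 and 3.57 CPM. Of 9 endothelial markers, *Cdh5*, *Tek*, *Emcn* and *Cldn5* are not in the table. The 5 that are summed to 63.9 to 81.9 CPM in control and 67.1 to 109 CPM in Nr3c1-Foxp3Cre libraries, with overlap. Among them *Pecam1*, which many leukocytes also express, was at 5.48, 5.68 and 5.56 log2 CPM in control and 5.97, 5.85 and 5.74 in Nr3c1-Foxp3Cre libraries without overlap, and *Kdr*, *Vwf*, *Plvap* and *Esam* overlapped. The log2 differences were 0.69 for *Plvap*, 0.54 for *Esam*, 0.28 for *Pecam1*, 0.11 for *Vwf* and -0.13 for *Kdr*. The 1 measured gene of 4 B cell markers was at 14.1 to 23.4 CPM in control and 15.1 to 21.3 CPM in Nr3c1-Foxp3Cre libraries, and the 1 of 4 CD8 T and NK cell markers at 7.62 to 15.6 CPM and 10.2 to 12.8 CPM. The sort given in the study's methods kept CD45+ CD4+ cells and left out those that stained for B220, CD11b, CD11c, NK1.1 or the gamma-delta T cell receptor. The labels instead name CD45, CD4 and CD25. Melanoma markers still summed to 3374 to 9051 CPM in control and 3766 to 9468 CPM in Nr3c1-Foxp3Cre libraries. The part of other cells in the *Selp* values was not tested.

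*Sele*, the gene of E-selectin, has no value here. Within 500 kb of *Selp*, 8 other genes were examined, and 0 of them passed an adjusted p under 0.05 by limma, while 1 had an unadjusted p under 0.05. The groups did not overlap for 2 that were higher, *Mettl18* and *Slc19a2*, and 1 that was lower, *Ccdc181*, against 7.41% of all genes in either direction. *Slc19a2*, a thiamine transporter gene 99020 bases downstream, was at 4.13, 4.30 and 4.35 in control and 4.53, 5.19 and 4.92 in Nr3c1-Foxp3Cre Tregs, a log2 difference of 0.62 (standard error 0.19, limma adjusted p = 1.0). The differences of the other 7 neighbors lay between -0.17 and 0.37.

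**Figure D3:**
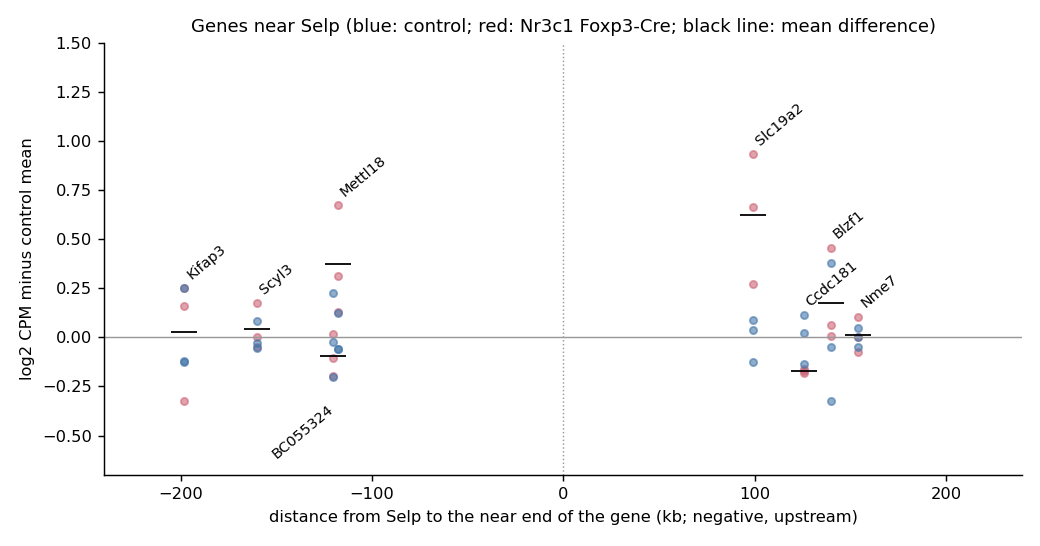
Genes within 500 kb of *Selp* are placed by distance from *Selp* (horizontal axis, kb). Points are single libraries, blue for control and red for Nr3c1-Foxp3Cre, on the vertical axis as log2 CPM minus the control mean, and black lines are mean differences; *Slc19a2* at 0.62 and *Mettl18* at 0.37 have the highest means, and *Selp* at 5.76 is off this scale and not drawn.

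By pattern over the 6 libraries, measured as the root mean square difference of log2 values after centering each gene on its own mean, the nearest genes to *Selp* were *Ctse*, which encodes the protease cathepsin E, at 1.35, *Zfp418* at 1.59 and *Etnk2* at 1.73. *Ctse* was at 7.07, 5.09 and 3.47 log2 CPM in control and 8.35, 8.20 and 8.35 in Nr3c1-Foxp3Cre Tregs. This likeness rests on the same difference that *Selp* was chosen on and on its places at the bottom of the control libraries, so it is a description only. *Ctse* and *Etnk2* are on chromosome 1, like *Selp*, and *Zfp418* is on chromosome 7. The share of all genes on chromosome 1 was not counted, so nothing is read from this. *Zfp418* was at -1.41, -1.87 and -2.30 in control and 0.56, 1.85 and 0.84 in Nr3c1-Foxp3Cre Tregs. *Etnk2* was at -0.21, -0.083 and -4.75 in control and 1.61, 0.26 and 2.45 in Nr3c1-Foxp3Cre Tregs.

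The ligand was unlike its selectin. *Selplg* (ENSMUSG00000048163.13), which encodes PSGL-1 and lies on the minus strand of chromosome 5 from 113818536 to 113832644, was at 9.54, 9.84 and 9.72 log2 CPM in control and 9.73, 9.66 and 9.86 in Nr3c1-Foxp3Cre Tregs. All 6 libraries were high, the groups overlapped, and the log2 difference of 0.049 (standard error 0.11) was smaller than the SD of 0.15 between controls. PSGL-1 must be glycosylated and sulfated to bind P-selectin. Of 11 listed enzyme genes for glycosylation and sulfation of selectin ligands in general, 10 were measured. Of these, *Gcnt1*, which starts the core 2 branch, was at 4.03, 3.89 and 4.02 in control and 4.38, 4.78 and 4.24 in Nr3c1-Foxp3Cre Tregs. Its groups did not overlap and its log2 difference was 0.48 (standard error 0.19, limma adjusted p = 1.0). *Fut7*, the leukocyte fucosyltransferase of selectin ligands, had a log2 difference of 0.13 (standard error 0.26), with overlap.

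*Ccr7* (ENSMUSG00000037944.8), on the minus strand of chromosome 11 from 99144196 to 99155077, encodes the receptor for the lymph node chemokines CCL19 and CCL21. It was at 7.05, 7.50 and 7.07 log2 CPM in control and 6.95, 6.63 and 6.20 in Nr3c1-Foxp3Cre Tregs. Each Nr3c1-Foxp3Cre library was below each control library, but replicate 1 lay near the lower controls and the SD of 0.38 among Nr3c1-Foxp3Cre libraries was the larger of the 2 groups. The log2 difference was -0.61 (standard error 0.19), from 149 ± 27 CPM (SD, n = 3) to 98.7 ± 25 CPM (SD, n = 3). The genes nearest to *Ccr7* in pattern were *Klhl11* at a root mean square difference of 0.082, *Kctd11* at 0.11 and *Ptgfrn* at 0.12 on the log2 scale. *Cxcr4*, a receptor of the wider list, was at 3.40, 4.38 and 4.02 in control and 3.47, 2.67 and 2.71 in Nr3c1-Foxp3Cre Tregs, where replicate 1 overlapped the lowest control. Its log2 difference was -0.98 (standard error 0.32, limma adjusted p = 1.0). *Cxcr5*, the other chemokine receptor of that list with a value, went the other way. It had a log2 difference of 0.83 (standard error 0.40), with overlap.

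The egress receptors and their regulator differed little. *S1pr1* (ENSMUSG00000045092.8; chromosome 3, 115710433 to 115715072), the main exit receptor of T cells, was at 6.39, 6.67 and 6.72 log2 CPM in control and 6.75, 6.64 and 6.68 in Nr3c1-Foxp3Cre Tregs. *S1pr4* (ENSMUSG00000044199.6; chromosome 10, 81497747 to 81500132), a related lymphocyte receptor, was at 4.64, 5.18 and 4.93 in control and 4.94, 4.63 and 5.06 in Nr3c1-Foxp3Cre Tregs. *Klf2* (ENSMUSG00000055148.7) was at 5.67, 6.04 and 5.71 in control and 5.99, 5.85 and 5.67 in Nr3c1-Foxp3Cre Tregs. For all 3 genes the libraries of both groups were interleaved. Their log2 differences of 0.094 (standard error 0.12), -0.042 (standard error 0.18) and 0.030 (standard error 0.14) were within the SD between control libraries, and leaving out 1 library changed the sign of each. Among the genes nearest to *Klf2* in pattern were *Nup98* at a root mean square difference of 0.039 and *Gpatch2l* at 0.046. *Klf3*, a relative of *Klf2*, had groups without overlap and a log2 difference of 0.36 (standard error 0.16, limma adjusted p = 1.0), and *Foxo1*, which promotes *Klf2* and *Ccr7* in resting T cells, had one of 0.17 (standard error 0.15) with overlap.

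Among the other genes of S1P metabolism and egress, 10 of 12 were measured, and 3 of these were lower without overlap, against 3.73% of all genes. They belong to the wider list, chosen with earlier results of these data known, so this count is a description only. Over the whole wider list 7.58% did not overlap in either direction, against 7.41% of all genes. Over the 10 genes of S1P metabolism and egress, 5 differences were positive and 5 negative, with a median of 0.017. The part of other cells in these values was not tested. *Cd69*, whose product draws S1PR1 off the cell surface, was at 7.77, 8.10 and 7.72 log2 CPM in control and 7.50, 7.60 and 7.58 in Nr3c1-Foxp3Cre Tregs. The Nr3c1-Foxp3Cre libraries were close together and just under the controls, with a log2 difference of -0.30 (standard error 0.12, limma adjusted p = 1.0). *Arrb2*, an arrestin that takes part in receptor uptake, had a log2 difference of -0.27 (standard error 0.11, limma adjusted p = 1.0). *S1pr3* was at 2.06, 1.94 and 1.34 in control and 0.90, 1.16 and -1.39 in Nr3c1-Foxp3Cre Tregs, a low level at which replicate 3 stood apart (log2 difference -1.56, standard error 0.65, limma adjusted p = 1.0).

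The adhesion molecules were abundant and overlapped between the groups. *Itgal* (ENSMUSG00000030830.18; chromosome 7, 127296260 to 127335138), the alpha chain of LFA-1, was at 8.43, 8.93 and 8.79 log2 CPM in control and 8.96, 8.51 and 8.71 in Nr3c1-Foxp3Cre Tregs. *Itgb7* (ENSMUSG00000001281.10; chromosome 15, 102215995 to 102231944), the beta chain of the gut-homing integrin and of the CD103 integrin, was at 9.56, 10.01 and 9.92 in control and 9.97, 9.77 and 9.96 in Nr3c1-Foxp3Cre Tregs. *Cd44* (ENSMUSG00000005087.17; chromosome 2, 102811141 to 102901665), the hyaluronan receptor, was at 7.40, 7.51 and 7.32 in control and 7.71, 7.41 and 7.34 in Nr3c1-Foxp3Cre Tregs. In *Itgal* and *Itgb7* control replicate 1 was the lowest of its group, and for *Cd44* only Nr3c1-Foxp3Cre replicate 1 was above the controls. The log2 differences were 0.013 (standard error 0.15), 0.070 (standard error 0.13) and 0.075 (standard error 0.12), each smaller than the SD between its control libraries. Of the integrin chains that pair with them, *Itgb2* had a log2 difference of 0.028, *Itga4* of 0.18 and *Itgae*, which encodes CD103, of 0.36, all with overlap.

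Per kilobase of exon, the order of the 9 genes in control Tregs was *Itgb7* at 331 ± 52 CPM per kb (SD, n = 3), *Selplg* at 195 ± 20, *Ccr7* at 75.4 ± 14, *Itgal* at 64.7 ± 11, *S1pr1* at 31.9 ± 3.9, *Klf2* at 30.5 ± 4.4, *Cd44* at 25.1 ± 1.6, *S1pr4* at 12.8 ± 2.4 and *Selp* at 0.00793 ± 0.0077. Neighbors in this order overlapped between control libraries for *Ccr7* and *Itgal* and for *S1pr1* and *Klf2*, and the others did not. In Nr3c1-Foxp3Cre Tregs *Ccr7*, at 49.9 ± 13 CPM per kb (SD, n = 3), had a lower mean than *Itgal*, at 65.1 ± 10. *Selp* was still last there, at 0.299 ± 0.014 CPM per kb, below *S1pr4* at 12.4 ± 1.8.

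The wider list gave 0 genes at an adjusted p under 0.05 by limma in either direction and 5 at an unadjusted p under 0.05, of 66 measured. That is 7.58% against 3.26% of all genes. The 1 higher was *Gcnt1*, and the 4 lower were *Cxcr4*, *Cd69*, *Arrb2* and *S1pr3*. In the alternatives this count at an unadjusted p ranged from 2 to 16 genes. The list was chosen with earlier results of these data known, so its share is a description only. The groups did not overlap for 5 genes, also 7.58%, against 7.41% of all genes, and 41 differences were positive and 25 negative, with a median of 0.063. Integrin subunits had 7 positive of 8, from -0.11 for *Itgav* to 0.48 for *Itga6*, and all overlapped. The 13 genes of integrin activation and the 3 linkers *Ezr*, *Msn* and *Rdx* overlapped as well, with differences between -0.20 and 0.27.

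**Figure D4:**
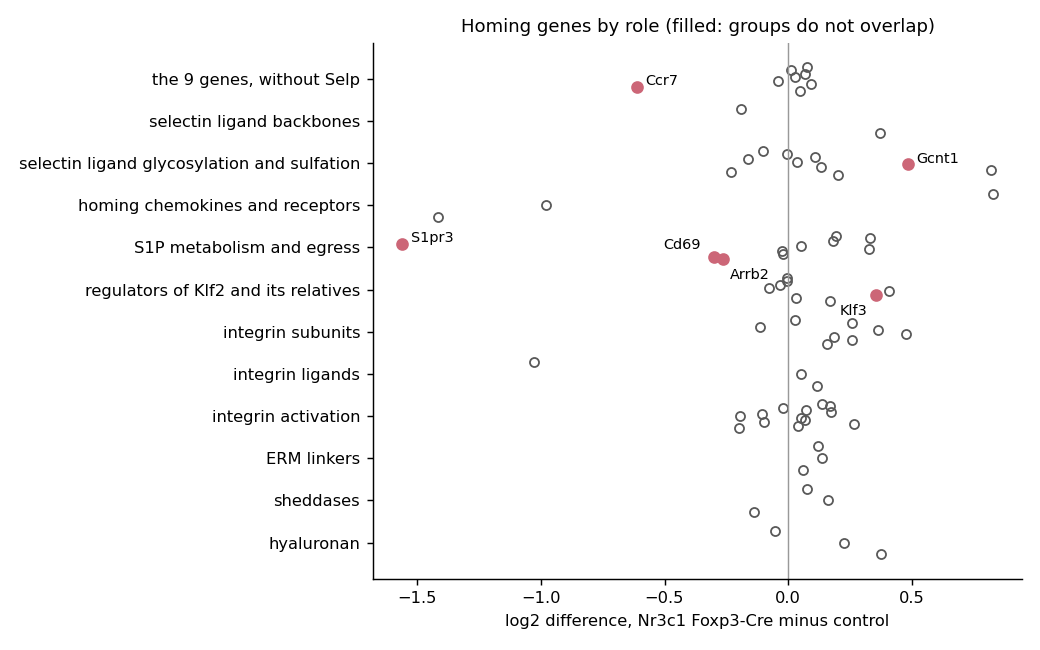
Log2 differences, Nr3c1-Foxp3Cre minus control (horizontal axis), of 66 homing genes by role and, in the top line, of the 9 genes without *Selp*; filled points are genes whose groups do not overlap. Most genes lie near 0, with *Gcnt1* and *Klf3* to the right and *Ccr7*, *Cd69*, *Arrb2* and *S1pr3* to the left among the filled points.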

How the data were processed

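RNA-Seq libraries of sorted tumor Tregs, 3 per genotype, were grouped by the sample titles. Per the study's methods, Cutadapt trimming and STAR alignment (mm10) were followed by RSEM quantification against GENCODE M21. The authors then filtered out genes under a CPM minimum and quantile normalized the libraries. The deposited values are log2 CPM, 1 column per library, for 12153 genes. Depth is unknown, and the number of libraries limits the precision. Columns were matched to samples by genotype and replicate number.

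A linear model with genotype as its only term was fitted to every gene in limma (version 3.58.1, R 4.3.3), with variances moderated along a trend on the mean level, and p-values were adjusted by Benjamini-Hochberg over all genes at 0.05. The weights of voom need counts and were not recomputed. The fit was tested on simulated data. *Nr3c1* was compared with an exact permutation test (scipy 1.17.1). Positions and exon lengths (the union of annotated exons) came from GENCODE M21, which matched 12130 identifiers, or 99.81%.

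The 9 genes, the wider list and the cell type markers were chosen with earlier results of these data known. Named genes are the 9, *Sele*, *Nr3c1*, listed genes with an unadjusted p under 0.05 or without overlap, genes within 500 kb of *Selp*, the 3 nearest genes in pattern to *Selp*, *Ccr7* and *Klf2*, and platelet and endothelial markers. Some genes that this rule names are not reported here, and the counts of the wider list and of the genes near *Selp* leave them out. *Foxp3*, *Fut7*, *Cxcr5*, *Foxo1*, *Itgb2*, *Itga4*, *Itgae*, *Itgav*, *Itga6* and the linkers were named after their values were seen, for their roles or as the ends of a range. The motifs were chosen after the values were seen. Alternatives were no trend, robust moderation, weights from vooma, weights per library (sample quality weights), the replicate number as a block, a mean of at least log2 1, values below log2 0 set to 0, a pseudocount of 1 CPM, cyclic loess, median centering, the log2 of the mean CPM for levels, a threshold of 0.1 and leaving out each library.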

Additional observations from a re-analysis of the deposited data

How the results depend on the processing

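The *Selp* log2 difference of 5.76 was 0.40 with values below log2 0 set to 0 and 1.16 with log2(CPM + 1), and it lay from 4.99 to 6.55 without one library. The minimum mean value removed *Selp*. *Ccr7* stayed lower in all alternatives, from -0.79 to -0.42 without one library.

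Some small differences changed sign. Sample quality weights were 7.47 for control replicate 3 and from 0.52 to 0.86 for the other libraries, so control replicate 3 dominates its group in that setting. Under sample quality weights *S1pr1* was at a log2 difference of -0.0051 and *Itgal* at -0.028. Without one library the difference ranged from -0.030 to 0.12 for *Selplg*, -0.0095 to 0.16 for *S1pr1*, -0.18 to 0.088 for *S1pr4*, -0.046 to 0.14 for *Klf2*, -0.065 to 0.16 for *Itgb7*, -0.13 to 0.12 for *Itgal* and -0.036 to 0.15 for *Cd44*.

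Over all genes, the 1 higher and 6 lower calls became 0 and 0 without a mean-variance trend, 7 and 12 with sample quality weights, and 0 to 3 higher and 0 to 5 lower without one library (3 were higher when control replicate 1 was left out, 2 when it was control replicate 2 and 0 for each of the other 4; 0 lower without control replicate 3 or Nr3c1-Foxp3Cre replicate 2, and 1 without Nr3c1-Foxp3Cre replicate 1 or 3). With vooma weights 2 were higher. Blocking on the replicate number left 0 higher and 0 lower, and a wider-list count of 3 at an unadjusted p. Same-numbered libraries had correlations of their deviations from the group means between -0.33 and -0.025. For libraries with different numbers the correlations lay between -0.27 and 0.36. With 3 libraries per group, this check cannot decide whether the numbers pair the libraries. The wider list had 0 calls at an adjusted p under 0.05 in every alternative, and its 5 at an unadjusted p became 2 without a trend, 8 with robust moderation, 8 with vooma weights, 16 with sample quality weights and 5 to 9 without one library (9 without control replicate 2 or Nr3c1-Foxp3Cre replicate 3, 8 without control replicate 3). Of the values recomputed, 168 kept their direction and side of the threshold or stayed within the spread, 27 moved further and 14 changed sign. The causes were not tested. The depth that would set how well *Selp* is measured is unknown.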

Other observations

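Of 12153 genes, *Selp* is one of 14 that were below 1 CPM in all 3 control libraries and above it in all 3 Nr3c1-Foxp3Cre libraries. Another 20 genes showed the opposite. These genes were singled out after their values were seen. Like *Selp*, each is above 1 CPM only in the group where it is higher. If the authors' filter kept a gene through that group alone, the gene had to differ. Among the 14, in the values as deposited, *Selp* had the largest log2 difference, followed by *Avil* at 3.40, where control replicate 2 alone was at -6.90, *Etnk2* at 3.12, *Zfp418* at 2.94 and *Ifitm1* at 2.31. This order depends on the values below 1 CPM. With those set to log2 0, each difference is the Nr3c1-Foxp3Cre mean, which was 1.44 for *Etnk2*, 1.23 for *Ifitm1*, 1.08 for *Zfp418*, 0.57 for *Avil* and 0.40 for *Selp*. *Zfp418*, a zinc finger gene, was the only other one of these 5 whose 3 control values all lay below -1 log2 CPM. Among the 20, the largest differences were those of *Svep1* at -4.33, *Pdpn* at -3.60 and *Ptpro* at -3.06. *Col8a1*, a collagen gene, had one of -2.25, and *Gzmk*, a granzyme of T cells, one of -1.58. No fibroblast markers were listed, and the part of other cells in these values was not tested.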
